A study of Mus musculus with 6 samples.

Results

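The respiratory chain subunits encoded in the nucleus were measured in mouse skin keratinocytes sorted by their K15-EGFP transgene, in which a keratin 15 promoter drives enhanced green fluorescent protein (EGFP). The subunits were chosen by gene symbol in the annotation of the array: every Nduf gene, Sdha to Sdhd, every Uqcr gene, Cox4 to Cox8 genes, every Atp5 gene, Cyc1 and Cycs. They came to 101 probe sets of 73 genes among 12488 probe sets in all. A further 10 probe sets that carry such a symbol beside another symbol were left out and are not named. Ndufaf1 and Ndufaf4, assembly factors that the symbol pattern takes in, were counted apart from the subunits.

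There were 3 arrays of EGFP-high cells and 3 of EGFP-negative cells, 1 array per sample, and both gates held cells positive for α6 integrin. All 6 samples carry the transgene and came from mouse skin. In this transgene the promoter marks mainly the bulge of the hair follicle, where follicle stem cells reside, and neither strain nor age is stated in the labels. Nor do they tell whether replicates were separate animals, sorts or pools. The p-values therefore rest on a spread between samples that may be technical.

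The respiratory chain passes electrons from NADH (complex I) and succinate (complex II) through ubiquinone to complex III, then by cytochrome c to complex IV and oxygen. The proton gradient that complexes I, III and IV build drives ATP synthesis by complex V. Subunits of complexes I, III, IV and V are also encoded in mitochondrial DNA, and none of the probe sets here carries the name of such a gene. Follicle stem cells of mouse skin are known for high glycolytic activity, which makes the chain a point of comparison with other basal keratinocytes.

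The 6 arrays had been brought to a common level before deposit: means trimmed by 2% at each end lay between 150.06 and 150.08. Intensities were analysed as log2(value + 19.3). Differences are EGFP-high minus EGFP-negative on that scale, which understates the change of dim probe sets. The bulge markers bore out the labels: 5 of 5 tested probe sets of that list rose in EGFP-high cells, among them Cd34, and Krt15 itself lay at the level of the bacterial control probe sets. Krt14 lay there too, on all 6 arrays, and Krt5 on 5 of 6, so the main basal keratins give no check. Itga6, the α6 integrin of the gate, fell in EGFP-high cells (log2 -1.26, limma adjusted p = 0.00449). The summed level of the basal markers was between 11307 and 15131 in EGFP-high and between 12362 and 13608 in EGFP-negative cells. Col17a1 was the largest part of that sum (means 7824.7 and 7027.1). Trp63 of that list lay lower without overlap (log2 -0.36), and Lamb3 lay higher with overlap on both probe sets (log2 0.40 and 0.34), none called. Skeletal muscle markers stood at the control level in 9 of 15 probe sets and adipocyte markers in 4 of 8. The summed sebocyte markers were 1153.9 to 1802.5 in EGFP-high and 1901.2 to 2760.4 in EGFP-negative cells, without overlap, carried by Scd1. Plin2 and Mc5r of that list lay higher in EGFP-high cells (log2 0.29 and 0.34), with overlap and not called. Of its 6 probe sets 2 stood at the control level, among them Pparg. The sums of adipocyte markers (181 to 255 against 124 to 161.6) and of melanocyte markers (521.2 to 552.9 against 426.5 to 471) likewise did not overlap between groups. Both were higher in EGFP-high cells, with 3 of 9 melanocyte probe sets at the control level. Cidea had the largest adipocyte gap (means 68.1 against 26.6), Adipoq was level (45.1 against 44.6), and 0 of 8 adipocyte probe sets were tested. On tested melanocyte probe sets Pmel and Sox10 lay higher (log2 0.49 and 0.31) and Dct lower (log2 -0.07), none called. The part of these cell types in the results below was not tested.

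In the fit that did not pair samples, no respiratory chain probe set passed the threshold between EGFP-high and EGFP-negative cells. Most lay slightly lower in EGFP-high. Of the 101 probe sets, 78 (65 genes) were bright enough to be tested. At an adjusted p of 0.05 by limma with Benjamini-Hochberg adjustment, 0 of 78 were called, where 5.19% of all 7453 tested probe sets were (3.02% higher and 2.17% lower). At an unadjusted p of 0.05, 9 of 78 passed (7 lower and 2 higher), or 11.5% against 17.1% of all tested probe sets (8.68% lower and 8.47% higher). The difference was below 0 for 57 of 78 (73.1%), against 50.2% of all tested probe sets. The median was -0.13, where that of all tested probe sets was -0.00. In bulk samples, fewer cells of a type and less RNA per cell cannot be told apart.

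The 95% interval of the difference in that unpaired fit had a median half-width of 0.43 on the log2 scale. It lay within a 2-fold change either way for 71 of 78 probe sets. For 73 of 78 it left out a halving. A change of less than that size was therefore often not detectable with 3 arrays a group, and a missing call does not show equal levels.

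The samples carry replicate numbers 1 to 3 in both groups, and arrays of one number tended to deviate together from the means of their groups (r = 0.336, 0.368 and 0.305 over the tested probe sets). All were positive. The main fit nevertheless left the numbers out, so its calls, standard errors and intervals do not use any pairing. Samples of the same number were paired in an alternative fit and wherever differences within numbers are given. With the replicate number as a block in the limma fit, 4 of 78 members passed and all 4 were lower in EGFP-high cells: Uqcrc1, Uqcr11, Ndufb8 and Cox6a1. That is 5.13% of the members, against 10.4% of all probe sets called in either direction and 5.31% called lower. The share of members called was thus no higher than that of the array. With both arrays of number 1 left out as well, the block called 1 (Uqcrc1), and without number 2 it called 0. Without number 3 it called 3 (Ndufb8, Uqcr11 and Uqcrc1). In each case 4 arrays remained, and the fit without the block called 0 members. Cox6a1 was called in none of these fits.

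**Figure D1:**
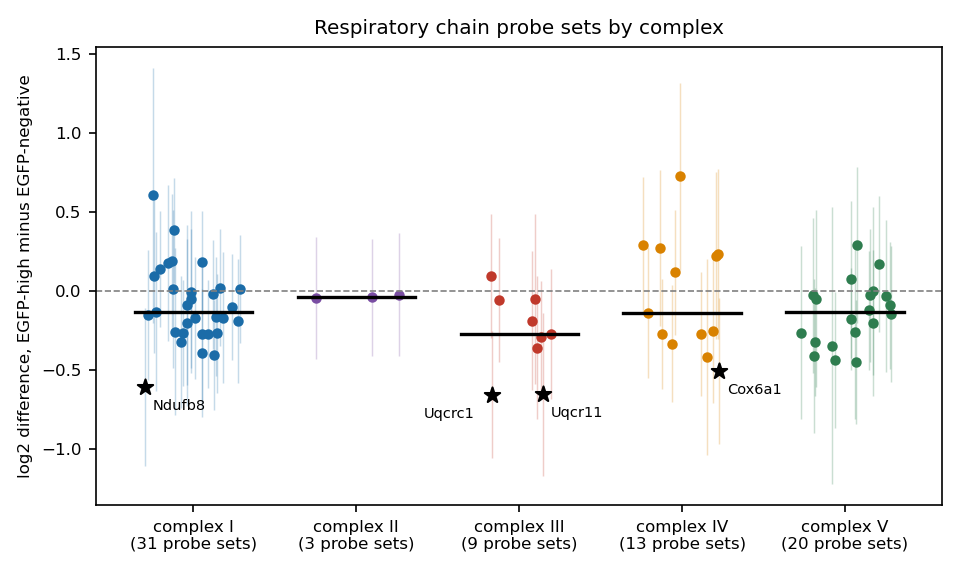
Log2 difference (EGFP-high minus EGFP-negative, vertical axis) of each tested probe set of complexes I to V, with its 95% interval from the fit without a block; black bars are medians, the dashed line is the median of all tested probe sets, and stars mark the 4 that passed with the replicate number as a block. The medians of the complexes lie between -0.27 and -0.04, and the points of complexes I and IV spread to both sides of 0.

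Complex III, which hands electrons from ubiquinol to cytochrome c, had the lowest median of the 5 complexes and held 2 of the 4 probe sets called with the block. Without the block 0 of its 9 probe sets were called. The 2 are 22.2% of the complex, where 5.31% of all tested probe sets were called lower with the block. In so small a complex that share rests on Uqcrc1 and Uqcr11 alone. All of its 9 probe sets (8 genes) were tested, with 8 below 0, a median of -0.27 and a range from -0.66 to 0.10. Whether this median differs from those of the other complexes was not tested. Within replicate numbers 1, 2 and 3 it was -0.25, -0.36 and -0.14.

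Uqcrc1, a core subunit of the matrix side of complex III, read 999, 965.5 and 796.7 in EGFP-high replicates 1, 2 and 3, and 1717.5, 1471.7 and 1220.2 in EGFP-negative replicates 1, 2 and 3. Every EGFP-high array was below every EGFP-negative array. The means were 920.4 ± 108 and 1469.8 ± 249 (SD, n = 3 each), a log2 difference of -0.66 (SE 0.18). Its limma adjusted p was 0.075 without the block and 0.00863 with it, within a range of 0.00863 to 0.361 over the alternatives.

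Uqcr11, the smallest accessory subunit of complex III, read 329.2, 335.4 and 276.8 in EGFP-high and 638.8, 570.8 and 348.5 in EGFP-negative cells. The groups did not overlap, and number 3 had the narrowest gap. The log2 difference was -0.65 (SE 0.23), with a limma adjusted p of 0.167 without and 0.0338 with the block (0.0338 to 0.543 over the alternatives). Without EGFP-negative replicate 3 it passed also with no block (adjusted p = 0.0349, limma).

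The promoters of the 4 genes called with the block are shown because these are the members whose calls turn on the pairing. Each is the 250 bases before the start site in RefSeq's GRCm38.p6, 5′ to 3′ on the gene's own strand: Uqcrc1 at chr9:108936398-108936647 (plus strand), Uqcr11 at chr10:80406822-80407071 (minus), Ndufb8 at chr19:44555443-44555692 (minus) and Cox6a1 at chr5:115348959-115349208 (minus). Capitals mark matches on either strand to motifs of factors known to act on nuclear respiratory genes: NRF-1 (GCGCATGCG) and the Ets motif of GABP (CCGGAAG). YY1 (AAGATGGC) and the estrogen-related receptors (TCAAGGTCA) were searched too and have no match in the 4.
Uqcrc1: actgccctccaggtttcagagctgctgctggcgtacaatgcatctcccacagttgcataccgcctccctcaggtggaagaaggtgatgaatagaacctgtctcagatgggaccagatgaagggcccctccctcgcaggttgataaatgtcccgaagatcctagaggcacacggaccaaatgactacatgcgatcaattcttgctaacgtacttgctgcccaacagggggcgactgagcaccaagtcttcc
Uqcr11: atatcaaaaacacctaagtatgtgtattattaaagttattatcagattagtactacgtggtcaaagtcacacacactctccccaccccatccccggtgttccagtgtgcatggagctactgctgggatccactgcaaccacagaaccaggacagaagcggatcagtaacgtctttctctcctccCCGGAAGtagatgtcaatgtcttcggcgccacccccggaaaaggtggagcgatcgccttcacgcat
Ndufb8: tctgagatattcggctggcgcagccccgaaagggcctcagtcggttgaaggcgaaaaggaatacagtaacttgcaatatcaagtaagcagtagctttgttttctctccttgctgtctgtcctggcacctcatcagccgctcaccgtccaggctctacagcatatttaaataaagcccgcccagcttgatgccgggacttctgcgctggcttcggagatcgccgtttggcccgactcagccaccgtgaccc
Cox6a1: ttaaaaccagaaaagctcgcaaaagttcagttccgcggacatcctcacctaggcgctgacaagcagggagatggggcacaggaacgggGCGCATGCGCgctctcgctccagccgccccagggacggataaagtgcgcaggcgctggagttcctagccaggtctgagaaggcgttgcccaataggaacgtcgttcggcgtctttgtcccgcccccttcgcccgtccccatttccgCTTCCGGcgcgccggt
Cox6a1 held 2 overlapping matches to the NRF-1 motif, 1 on each strand of a palindromic stretch, and 1 match to the Ets motif, Uqcr11 held 1 to the Ets motif, and Uqcrc1 and Ndufb8 held 0 of either. Promoters of 59 of the 73 member genes were matched by symbol, 64 promoters in all. Of these, 7 (10.9%) held the NRF-1 motif, 12 (18.8%) the Ets motif, 1 (1.56%) that of YY1 and 0 that of the estrogen-related receptors. Among the 5882 promoters of all genes with a tested probe set the shares were 2.75%, 13.3%, 1.99% and 0.238%, and among all 32851 promoters 1.45%, 6.91%, 1.56% and 0.387%. A form of the NRF-1 motif that is 1 base longer and takes any base in position 6 was found in 10 (15.6%) of the members' promoters, 8.25% of those of tested genes and 3.74% of all. A match describes the letters only and is no evidence of binding.

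Cyc1, the haem-bearing cytochrome c1, gave opposite signs on its probe sets. One read 1397.1, 986.3 and 1148 in EGFP-high and 1635.8, 1271.3 and 1134.2 in EGFP-negative cells (log2 -0.19, SE 0.19, limma adjusted p = 0.694). The other read 1402.2, 1164.9 and 942.8 against 1081.2, 1039.3 and 1121.1 (log2 0.10, SE 0.17, limma adjusted p = 0.844). The groups overlapped on both, so neither probe set separates them. The remaining subunits were Uqcrc2, the other core subunit, at -0.27, Uqcrb at -0.29, Uqcrq at -0.36, Uqcr10 at -0.06 and the hinge protein gene Uqcrh at -0.05, none past the threshold in either fit. They are named to complete the complex, after their values were seen. Cycs, the mobile cytochrome c between complexes III and IV, read 99, 57.5 and 82.5 against 105.2, 81.8 and 103.7 (log2 -0.25, SE 0.22, limma adjusted p = 0.636) and was lower within all 3 replicate numbers.

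Complex I, the NADH dehydrogenase and the largest complex, had small differences in both directions. Of its 38 probe sets, 31 (28 of 29 genes) were tested, with 21 below 0 and 10 above 0, a median of -0.13 and a range from -0.61 to 0.61. By limma 0 passed without the block (3 at an unadjusted p of 0.05, 2 of them lower) and 1, Ndufb8, with it. The 3 are 9.68% of the complex, against 17.1% of all tested probe sets. The 1 called lower with the block is 3.23%, against 5.31%. Within numbers 1, 2 and 3 the median was -0.18, -0.18 and -0.08. The matrix arm, which oxidises NADH and passes electrons to ubiquinone, had 9 of 12 probe sets below 0 and a median of -0.13. The membrane arm, whose accessory subunits surround the proton pumps, had 12 of 19 below 0 and a median of -0.13 as well.

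Ndufb8, an accessory subunit of the membrane arm whose protein is widely used as a marker of assembled complex I, read 499.4, 345.7 and 419.4 in EGFP-high and 867, 602.1 and 517 in EGFP-negative cells. All EGFP-high arrays were below all EGFP-negative arrays, the highest EGFP-high array by a narrow gap. The means were 421.5 ± 76.9 and 662 ± 183 (SD, n = 3 each). The log2 difference was -0.61 (SE 0.22), with a limma adjusted p of 0.187 without and 0.035 with the block (0.035 to 0.57 over the alternatives).

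Ndufa1, a small subunit needed for assembly of the membrane arm, had the largest positive value of the complex and the widest interval. It read 217.2, 214 and 94.6 in EGFP-high and 56.7, 131.1 and 136.3 in EGFP-negative cells, so the groups overlapped. The difference was 1.64 within number 1, 0.63 within number 2 and -0.45 within number 3. The fit gave 0.61 (95% interval -0.20 to 1.41, limma adjusted p = 0.452). Its other probe set lay at the control level on all arrays.

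Among the subunits that first take up electrons, Ndufv1, which binds the flavin, read 1091.7, 1364 and 1111.8 against 1037.3, 1311 and 1164.5 (log2 0.02, SE 0.16). Its partner Ndufv2, an iron-sulphur subunit, read 351.5, 292.6 and 328.7 against 475.5, 422.5 and 408.9, without overlap (log2 -0.41, SE 0.15, limma adjusted p = 0.205). A second Ndufv2 probe set had a log2 difference of -0.15. In the other direction Ndufc1 of the membrane arm read 506.1, 496 and 496.4 against 415.7, 382.2 and 340.8, also without overlap (log2 0.38, SE 0.15, limma adjusted p = 0.218). Ndufa2, an accessory subunit of the matrix arm, also lay higher without overlap, at 368.5, 372 and 382.4 against 334.7, 349 and 301.9 (log2 0.18, SE 0.14). Lower without overlap were Ndufa9, next to the ubiquinone site (log2 -0.27, SE 0.15), and Ndufb5 of the membrane arm (log2 -0.27, SE 0.15). Ndufv1, Ndufv2, Ndufc1, Ndufa2, Ndufa9 and Ndufb5 were chosen for naming after their values were seen, and none passed in either fit. Ndufa3 had opposite signs on its probe sets (log2 0.09 and -0.20), with overlap on both. The assembly factor Ndufaf1 had a log2 difference of 0.14 on its tested probe set, and Ndufaf4 was not tested.

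Complex II, succinate dehydrogenase, which also serves in the tricarboxylic acid cycle, had the values nearest to 0. Sdhb, the iron-sulphur subunit, read 357.3, 294 and 370.1 in EGFP-high and 404.1, 345.7 and 307.1 in EGFP-negative cells (log2 -0.04, 95% interval -0.43 to 0.34). Sdhc, a membrane anchor, read 551.3, 495.3 and 587 against 651.6, 546.2 and 492.2 (log2 -0.04, 95% interval -0.41 to 0.33). Sdhd, the other anchor, read 544.9, 433.2 and 397.9 against 426.9, 520.4 and 445.5 (log2 -0.02, 95% interval -0.41 to 0.37). The groups overlapped for all 3, and no subunit had the same direction in all 3 replicate numbers. Sdha, the flavoprotein, was too dim to be tested, at 34.7, 33.2 and 44.1 against 43.5, 21.5 and 28.7, above the control level on 3 of 6 arrays.

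Complex IV, cytochrome c oxidase, was the least well covered. Of its 23 probe sets 10 were not tested, 7 of them at or under the control level on all arrays. That level is the 95th percentile of 15 bacterial control probe sets on the same array, 25.9 to 43.95. Cox5a and Cox8a, subunits that every cell with a working oxidase is expected to make, were among those at the control level on all of their probe sets. Of the 13 tested, 7 were below 0 and 6 above 0, with a median of -0.14 and a range from -0.51 to 0.73. The sign of this median depends on the filter: it was 0.12 with no filter on low values.

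Cox6a1, the form of subunit VIa made outside heart and muscle, read 1308.4, 1200.1 and 1102 in EGFP-high and 2334, 1529.9 and 1415.4 in EGFP-negative cells. The groups did not overlap, and EGFP-negative replicate 1 stood well above the rest. The means were 1203.5 ± 103 and 1759.8 ± 501 (SD, n = 3 each). The log2 difference was -0.51 (SE 0.21), with a limma adjusted p of 0.241 without and 0.0493 with the block (0.0493 to 0.535 over the alternatives). Its probe set belongs to the 37 of 101 whose suffix marks probes that may also bind similar transcripts.

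Cox6c, a small membrane subunit, disagreed between probe sets. On the one with the higher readings it read 1630.2, 1686.3 and 2104.2 in EGFP-high and 2214.9, 2076.5 and 2537.6 in EGFP-negative cells (log2 -0.33, SE 0.16, limma adjusted p = 0.351). The other tested one read 68.8, 72.2 and 63.6 against 20.5, 52.7 and 32.2 (log2 0.73, SE 0.26, limma adjusted p = 0.183), the highest value of any member. There the groups did not overlap, and EGFP-negative replicate 1 lay below the control level. Another Cox6c probe set was not tested, so the data give this gene no direction. Cox4i1, the ubiquitous form of subunit IV, likewise had opposite signs (log2 -0.25 and 0.12), with overlap on both.

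The tissue isoforms of complex IV were read beside the muscle markers. Cox6a2 and Cox7a1, the heart and muscle forms, lay at the control level on all 6 arrays, at 23.8 to 31.2 and 1.6 to 17.9. Of the 10 muscle marker genes, Acta1, Mb, Tnnt3, Tnni2 and Myh2 lay there as well on all their probe sets. Ckm, Mylpf, Actn3 and Myh4 each had 1 probe set above the control level on 6 arrays, and Des lay above it on 4. The summed level of the list was 368.2 to 565.9 in EGFP-high and 451.9 to 514.1 in EGFP-negative cells. That Myh4 probe set read 119.1, 137.6 and 62.2 in EGFP-high against 68.2, 36.9 and 28.7 in EGFP-negative cells and passed with the block (log2 0.97, limma adjusted p = 0.138 without and 0.0349 with it), while the other Myh4 probe set lay at the control level. The part of muscle RNA in the isoform values was not tested. The ubiquitous Cox7a2 read 1157.2, 1189.8 and 973.2 against 1483.8, 1216.7 and 995 (log2 -0.14, SE 0.18), and Cox7a2l, which links complexes III and IV into supercomplexes, had a log2 difference of -0.27 (SE 0.17). Cox6b1 was at 0.29 (SE 0.19) and its testis form Cox6b2 at 0.22 (SE 0.23) on the 1 tested of 3 probe sets. Cox8b, a heart and muscle form, read 169.3, 129.3 and 135.8 against 135.3, 78.8 and 157 on 1 probe set and was not tested on the other. Cox8c, known as a testis form, read 555.4, 776.4 and 614.6 against 389.6, 636.3 and 597.1 on 1 probe set (log2 0.27, SE 0.22) and lay at the control level on the other. The probe sets of Cox8b and of Cox8c thus disagreed on whether the gene is detected. None of these isoforms passed the threshold in either fit.

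Complex V, the ATP synthase, had 20 of 22 probe sets tested (13 of 14 genes), with 17 below 0, a median of -0.13 and a range from -0.45 to 0.29. By limma 0 passed in either fit, and 2 had an unadjusted p of 0.05 or less without the block, both lower. The catalytic F1 head had 7 of 8 probe sets below 0 and a median of -0.25. These 8 probe sets come from only 4 genes, and most of them query Atp5d or Atp5c1. The peripheral stalk had 3 of 3 below 0 but 0 of 3 lower within all replicate numbers. Of the stalk genes, Atp5pb read 117.2, 81.3 and 28.1 in EGFP-high against 93.2, 60.9 and 129.2 in EGFP-negative cells, so only number 3 put it below 0 (named after its values were seen). The membrane-bound c ring, encoded by Atp5g1 and Atp5g2 here, had a median of -0.03 over 4 probe sets. Within numbers 1, 2 and 3 the median of the complex was -0.07, -0.13 and -0.09.

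Atp5c1, the central shaft of the F1 head, had the lowest value of complex V. It read 959, 848.1 and 970.9 in EGFP-high and 1443.3, 1023.2 and 1390.3 in EGFP-negative cells on 1 probe set, without overlap (log2 -0.45, SE 0.17). The second read 1096.9, 836.5 and 1252.9 against 1638.1, 1245.5 and 1430.7 (log2 -0.44, SE 0.19), with overlap by 1 array. Their limma adjusted p values were 0.219 and 0.279, and 0.0527 and 0.0661 with the block, just outside the threshold. Both probe sets query the same gene and count as 1 measurement of it. Atp5d, the delta subunit of the F1 stalk, had 4 tested probe sets with log2 differences of -0.41, -0.32, -0.12 and -0.03. The groups did not overlap on the first and second of these and overlapped on the others (chosen for naming after the values were seen).

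Atp5k, a membrane subunit that takes part in dimer formation, had the highest value of complex V, at 126.7, 106.8 and 81.1 against 102.6, 77.5 and 66.3. It was higher in EGFP-high within all 3 numbers, but the groups overlapped (log2 0.29, SE 0.22, limma adjusted p = 0.578). Atp5g1 read 70.6, 102.4 and 77.4 against 64.4, 126.6 and 76.7 on 1 probe set (log2 -0.05), and its other probe set gave -0.03. Atp5g2 gave 0.17 and -0.03 on its probe sets.

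**Figure D2:**
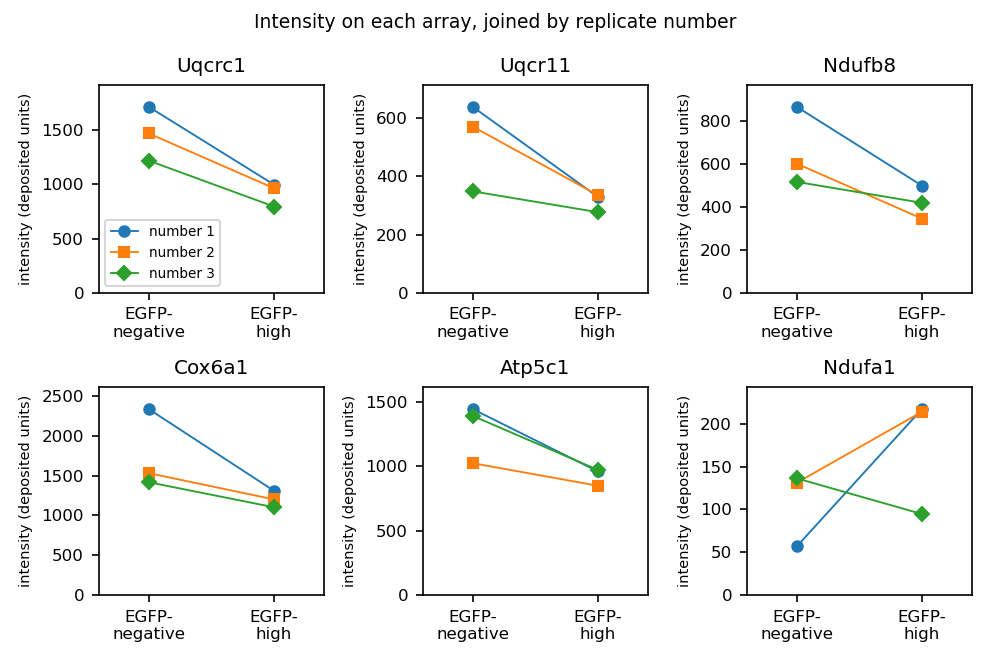
Deposited intensity (vertical axis, starting at 0) of 6 genes on the EGFP-negative and EGFP-high arrays, with lines joining arrays of the same replicate number. Uqcrc1, Uqcr11, Ndufb8, Cox6a1 and Atp5c1 slope down within each number, and Ndufa1 slopes up in numbers 1 and 2 and down in number 3.

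Direction within replicate numbers was read for all members. Of the 78 tested, 27 (34.6%) were lower in EGFP-high within all 3 numbers, against 22.9% of all tested probe sets, and 7 were higher within all 3, where the array has 21.9%. In 12 (15.4%) every EGFP-high array was below every EGFP-negative array, against 11.1% of the array, and in 3 it was above, against 11.6%. Those 12 probe sets are in complexes I (4), III (2), IV (2) and V (4). The median over all members was -0.19 within number 1, -0.15 within number 2 and -0.08 within number 3.

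**Figure D3:**
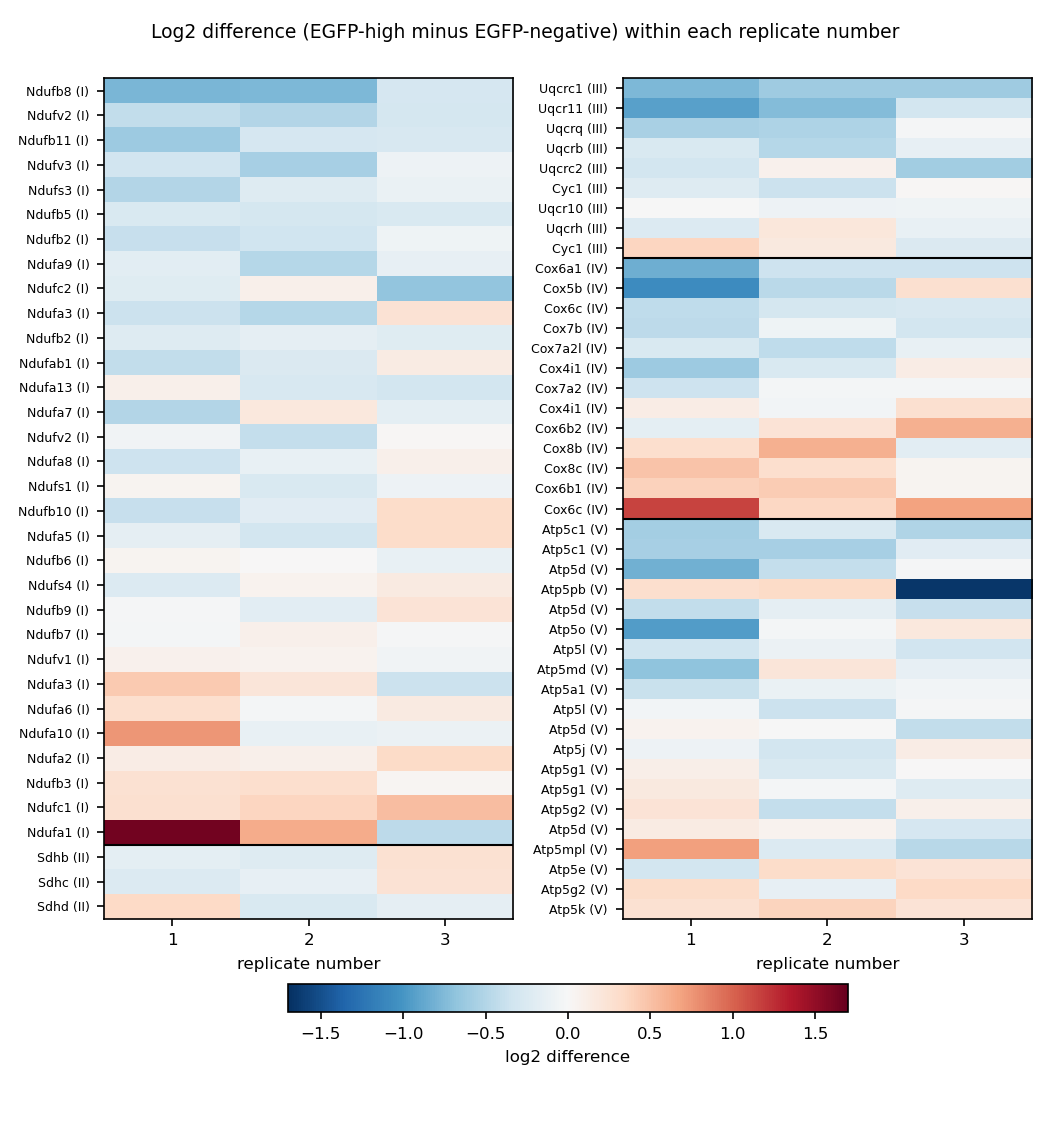
Log2 difference (EGFP-high minus EGFP-negative; blue lower, red higher) within replicate numbers 1, 2 and 3 for each tested probe set of complexes I to V, grouped by complex and sorted by the fitted difference; genes with several probe sets appear several times. Blue cells outnumber red ones in every complex, and single cells such as Ndufa1 in number 1 stand apart from the other numbers.

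Of the 6 arrays left out in turn, EGFP-negative replicate 1 moved the members' median difference most. Each probe set was set against its own mean over the 6 arrays, and the median deviation of the 78 members was 0.03, -0.07 and -0.12 on EGFP-high arrays 1, 2 and 3 and 0.21, 0.08 and -0.06 on EGFP-negative arrays 1, 2 and 3. On EGFP-negative replicate 1, 39 of 78 members had their highest value. EGFP-negative replicate 3 lay among the EGFP-high arrays, so the groups overlapped, while within each of the 3 replicate numbers the EGFP-high array was the lower one. Cox5b of complex IV and Atp5o of the peripheral stalk, both named after their values were seen, show the place of the EGFP-negative arrays. Within number 3, unlike the members' median, they were higher in EGFP-high (log2 0.28 and 0.19). Cox5b read 492.9, 515.5 and 535.7 in EGFP-high and 1053.4, 715.5 and 438.9 in EGFP-negative cells. Atp5o read 555.3, 601.1 and 634.2 against 1091.2, 613.3 and 555.4. In both, EGFP-negative replicate 1 was highest and EGFP-negative replicate 3 was not above all EGFP-high arrays. Over all tested probe sets the same median lay between -0.01 and 0.04. Without EGFP-negative replicate 1 the median difference of the members was -0.07, with 47 of 78 below 0. Without both arrays of number 1 it was -0.11, with 53 of 78 below 0. Without EGFP-negative replicate 1 alone, the medians of complexes II and IV crossed 0 (0.05 and 0.00), as did that of complex II without EGFP-high replicate 2 (0.02). The ratio of 3′ to 5′ signal, a measure of RNA quality, was read from 3 control transcripts. For Gapdh it was 0.829, 1.48 and 0.917 on EGFP-high arrays and 0.885, 1.15 and 0.77 on EGFP-negative arrays. For actin it was 1.42, 2.03 and 1.51 against 1.26, 1.59 and 1.41, higher in EGFP-high within each number. For the transferrin receptor it was 1.52, 1.64 and 1.88 against 1.87, 2.73 and 3.15, lower in EGFP-high within each number. The part of these ratios in the result was not tested.

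**Figure D4:**
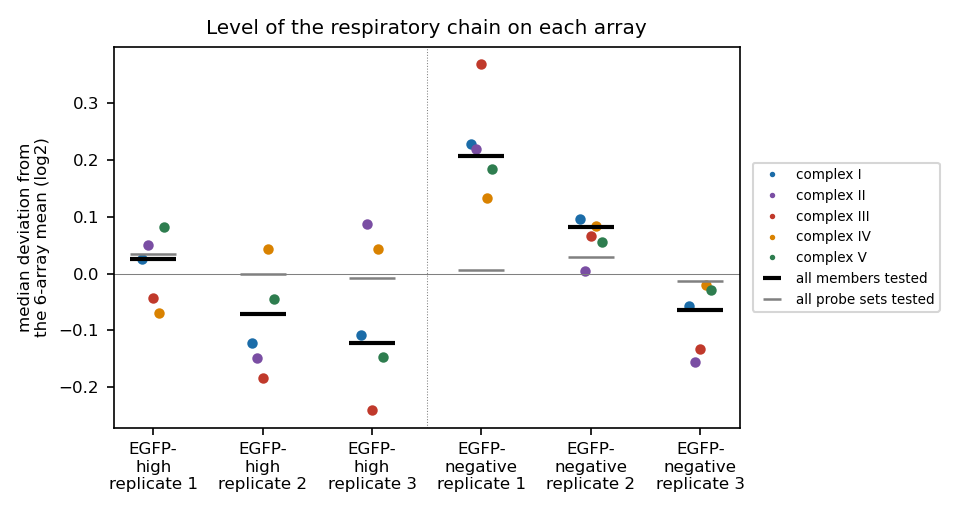
Median deviation (log2) of tested probe sets from their own mean over the 6 arrays, by array: coloured points are complexes I to V, black bars all 78 members, grey bars all tested probe sets. EGFP-negative replicate 1 lies highest for the members at 0.21, and EGFP-negative replicate 3 lies at -0.06, between EGFP-high replicates 1 and 2.

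Other mitochondrial genes, read from lists of related functions, had no limma call without the block either. At an unadjusted p of 0.05 the counts were 2 of 19 for the tricarboxylic acid cycle and pyruvate dehydrogenase, 1 of 25 for import and chaperones, 3 of 62 for ribosomal proteins, 2 of 12 for biogenesis regulators and 2 of 7 for antioxidant enzymes. They were 0 of 12 for carriers and pores, 1 of 13 for other routes of electron entry and 0 of 9 for assembly factors. Of all tested probe sets 17.1% passed at that unadjusted p, 5.19% were called without the block and 10.4% with it. Of 19 tested probe sets of the tricarboxylic acid cycle and pyruvate dehydrogenase 0 passed, with a median of -0.03, and 1 was lower with the block: Cs, citrate synthase, at 645, 567.7 and 666.6 in EGFP-high against 890, 980.8 and 908.9 in EGFP-negative cells. These groups did not overlap (log2 -0.55, SE 0.15, limma adjusted p = 0.07 without and 0.0309 with the block). In the same list Idh2, an NADP-dependent isocitrate dehydrogenase, had the highest value at 0.31, not past the threshold. Of 25 probe sets for protein import and chaperones 0 passed in either fit, with a median of -0.18. Of 62 for mitochondrial ribosomal proteins 0 passed in either fit, with a median of -0.12. There 43 were below 0, where 50.2% of all tested probe sets were.

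Among 12 tested probe sets of biogenesis regulators and mitochondrial DNA maintenance 0 passed without and 1 with the block, Rrm2b, a ribonucleotide reductase subunit, higher in EGFP-high at 143.1, 106.9 and 164.9 against 67.6, 64.7 and 105.5 (log2 0.68, SE 0.23, limma adjusted p = 0.144 without and 0.0412 with the block). Of 7 antioxidant enzymes 0 passed without and 1 with the block, Txnrd2, the mitochondrial thioredoxin reductase, higher at 74.1, 79.7 and 65.7 against 31.2, 42.5 and 20 (log2 0.89, SE 0.24, limma adjusted p = 0.0758 without and 0.0458 with the block). The Txnrd2 probe set was above the control level on 4 of 6 arrays, so the size depends on the pseudocount. With the block 10.4% of all tested probe sets were called. Of 12 probe sets for carriers and pores, 13 for other routes of electron entry and 9 for assembly factors, 0 passed in either fit, with medians of -0.10, 0.01 and -0.01. The lowest were the adenine nucleotide carrier Slc25a5 (log2 -0.27), the glycerol phosphate dehydrogenase Gpd2 (log2 -0.58) and Acad9 (log2 -0.36). The highest of the carriers and of the other electron routes were Ucp3 (log2 0.16) and Coq5 (log2 0.23).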

How the data were processed

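RNA of 6 sorted keratinocyte samples was read on 1 Affymetrix mouse array each. The authors deposited linear intensity values, 1 for each probe set of each array. Software, scaling and background method: not given in the sources used here. Gene symbols came from the platform annotation. The 66 control rows were left out. Probe sets whose mean log2(value + 19.3) was above the 40th percentile (an intensity near 44.5) were tested, 7453 in all; 19.3 is the 25th percentile of all values. limma 3.58.1 in R 4.3.3 (lmFit, eBayes with an intensity trend, two-sided, Benjamini-Hochberg over all tested probe sets) compared the groups without a block, and with the replicate number as a block as an alternative. The pairing comes from the numbers in the titles and the correlation of same-numbered arrays, since the labels do not state it. The fit was tested on simulated data. Members were assigned to complexes from general knowledge. The members and lists were chosen with earlier results of these data known. Genes given array by array are those called in either fit, the highest and lowest of each complex, tissue isoforms, complex II, Cyc1, Cycs and genes whose probe sets have opposite signs; others are said to be chosen after their values were seen, and so were Cox5a, Ndufaf1 and Ndufaf4. In the related lists, called genes and some of the highest or lowest values are named. Alternatives covered the pseudocount, filter, scaling, variance trend, probe set choice and arrays left out. The number of arrays limits the precision. The cell type markers read were of basal keratinocytes, bulge cells, skeletal muscle, adipocytes, fibroblasts, endothelial cells, melanocytes, leukocytes, erythrocytes and sebocytes.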

Additional observations from a re-analysis of the deposited data

How the results depend on the processing

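No member was called higher under any alternative run. The probe sets with several symbols are not among the members. The number called lower, 0 in the fit without a block, was 4 with the replicate number as a block, and 0 to 1 with 1 array left out (1, Uqcr11, without EGFP-negative replicate 3). In fits chosen after seeing the data, the block without number 1 gave 1, without number 2 gave 0 and without number 3 gave 3. All tested probe sets called came to 387, to 778 with the block, 191 to 499 with 1 array left out, 131 and 57 without both arrays of number 2 or number 3, and 744 with the block without number 1. The median of all members was -0.057 with no filter on low values and -0.19 to -0.066 with 1 array left out. That of complex I was -0.22 to -0.057 with 1 array left out and -0.040 without number 2, with or without the block. That of complex IV was 0.12 with no filter. That of complex V was -0.18 with arrays centred on their median, -0.10 with a pseudocount 4 times as large or with quantile normalization, -0.20 with the stricter filter (60th percentile), -0.091 without probe sets that can share signal, -0.087 without number 3 (with or without the block), and -0.19 to -0.023 with 1 array left out. For these shifts the cause was not tested. The median of complex III stayed between -0.32 and -0.21 with 1 array left out. Of 30 named probe sets, 19 kept their sign under every one of the 20 alternatives that gave them a value (17 to 20 each). The other 11 did not, the largest of the 11 at 0.23. In this balanced design the block, the filter and the variance trend leave a probe set's difference unchanged, so they could not change a sign. Each fit with the block and a number left out repeats the sign of the unblocked fit without that number. Signal near the control level limits complex IV most.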

Other observations

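Of the other cell type markers, 1 of 5 tested fibroblast probe sets was higher in EGFP-high cells, where 3.02% of all tested probe sets were. It queries Col1a2 (log2 2.32, limma adjusted p = 0.00489), while the other tested Col1a2 probe set was level (log2 -0.03). The part of fibroblast RNA in the results was not tested. Of the remaining types, 0 of 1 endothelial, 0 of 3 melanocyte, 0 of 2 leukocyte and 0 of 1 erythrocyte probe sets passed (limma, adjusted p of 0.05). Of the 9 tested probe sets that carry a respiratory chain symbol beside another symbol, 0 passed without the block (lowest adjusted p = 0.0709, limma) and 1 was higher with it (adjusted p = 0.019). Its log2 difference was 0.76, without overlap between groups. With the block 5.13% of all tested probe sets were called higher. The counts of members called do not include it, since these 9 were left out of the members. Of the 23 members too dim to be tested, 15 lay at or under the control level on all arrays, and with no filter the lowest limma adjusted p among them was 0.194.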
